A study of Mus musculus with 8 samples.

Results

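A set of 10 immediate early and Krüppel-like factor (KLF) genes was examined in hearts of mouse embryos: *Ier2*, *Ier3*, *Fos*, *Jun*, *Junb*, *Egr1*, *Atf3*, *Klf2*, *Klf4* and *Klf6*. They were picked by symbol from a table of 24385 genes and other features, and all 10 were found in it. They were selected on earlier results of these libraries, in which several of them stood out between genotypes at E9.5, so their E9.5 genotype differences are given as a description and no test of them is read. RNA was sequenced from whole hearts at embryonic day 8.5 (E8.5) and E9.5, on a C57BL/6 background, with 2 libraries in each of 4 groups. The knockout groups (cKO) were Mesp1Cre/+ embryos with both *Dgcr8* alleles deleted in progeny of *Mesp1*-expressing mesoderm, so cells of other lineages in the heart kept *Dgcr8*. The control groups (WT) are labelled wild type. The study lists its RNA-seq controls as carrying loxP-flanked *Dgcr8* without *Mesp1*-driven Cre, which means that the Cre allele also differs between the groups. It lists a *Rosa26* mT/mG reporter in both groups, which Cre switches from tdTomato to GFP in the knockout. The number of hearts in a library was not stated. *Dgcr8* encodes the partner of Drosha in cutting primary microRNA transcripts.

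Immediate early genes are transcribed within minutes of a stimulus (growth factors, stretch, stress) without new protein synthesis, and most of their mRNAs are short-lived. Fos, Jun and Junb are subunits of AP-1, a dimeric transcription factor. Atf3 belongs to the related CREB/ATF family and Egr1 is a zinc finger factor, while the KLF proteins bind GC-rich DNA and Klf2 in the endocardium is known to respond to blood flow.

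The promoters of 4 genes are shown because 3 of these genes (*Ier3*, *Junb* and *Atf3*) had both E9.5 cKO libraries above both E9.5 WT libraries, while the libraries of *Fos*, the best known gene of the class, overlapped. Each is the RefSeq window from 250 bases before the annotated start to 50 bases from it, 5′ to 3′ on the gene's strand, on GRCm38.p6. The windows lie at chr17:35821463-35821762 (*Ier3*, plus strand), chr8:84978699-84978998 (*Junb*, minus strand), chr1:191183284-191183583 (*Atf3*, minus strand) and chr12:85473640-85473939 (*Fos*, plus strand). Capitals mark the TATA box letters TATAAA, the CCAAT box, the core of CREB/ATF sites (TGACG) and TGATGNAA (a composite C/EBP and ATF element) on either strand.
*Ier3*: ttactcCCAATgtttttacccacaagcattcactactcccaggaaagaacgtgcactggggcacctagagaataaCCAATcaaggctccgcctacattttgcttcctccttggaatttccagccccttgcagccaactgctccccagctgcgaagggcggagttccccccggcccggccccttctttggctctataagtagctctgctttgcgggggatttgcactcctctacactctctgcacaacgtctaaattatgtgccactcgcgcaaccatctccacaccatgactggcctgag
*Junb*: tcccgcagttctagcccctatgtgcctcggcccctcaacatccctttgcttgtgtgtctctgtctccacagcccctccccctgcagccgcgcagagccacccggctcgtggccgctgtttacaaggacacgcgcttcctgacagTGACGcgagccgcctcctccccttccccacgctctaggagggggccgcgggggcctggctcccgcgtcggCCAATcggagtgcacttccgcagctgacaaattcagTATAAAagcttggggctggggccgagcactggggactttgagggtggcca
*Atf3*: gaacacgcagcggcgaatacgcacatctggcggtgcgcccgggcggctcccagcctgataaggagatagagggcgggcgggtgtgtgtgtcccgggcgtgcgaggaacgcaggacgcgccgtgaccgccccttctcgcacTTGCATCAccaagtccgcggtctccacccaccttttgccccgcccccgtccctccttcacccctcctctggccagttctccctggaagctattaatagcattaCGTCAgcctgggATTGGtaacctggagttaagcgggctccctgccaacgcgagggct
*Fos*: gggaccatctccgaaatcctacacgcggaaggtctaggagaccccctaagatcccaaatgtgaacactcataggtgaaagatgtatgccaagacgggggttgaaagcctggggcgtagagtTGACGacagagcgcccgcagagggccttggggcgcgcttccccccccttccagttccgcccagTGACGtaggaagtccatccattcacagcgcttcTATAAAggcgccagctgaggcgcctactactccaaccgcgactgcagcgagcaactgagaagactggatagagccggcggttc

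The 4 windows differed in these letters. *Fos* held TATAAA 33 bases before its start, and *Junb* held it at the annotated start itself. *Ier3* held neither TATAAA nor TGACG and had CCAAT at 2 places. *Atf3* alone of the 8 genes with a window held TGATGNAA, on the reverse strand, and also had TGACG 7 bases before its start. Of the 8 windows, 2 held TATAAA (*Fos* and *Junb*), against 13.6% of all 32851 promoters. TGACG was in 5 windows (*Fos*, *Junb*, *Atf3*, *Klf2* and *Klf4*), against 20.8% of all promoters. CCAAT was in 5 (37.4% of all), the Sp/KLF-type letters GGGCGG were in 7 (35.7%), and the EGR-type GCGNGGGCG, which can overlap GGGCGG, was in *Klf2* and *Klf4* (5.55%). TGATGNAA was in 3.97% of all promoters. The CArG box bound by serum response factor (1.63% of all), the full CRE TGACGTCA (1.79%) and the AP-1 letters TGANTCA (7.81%) were in none of the 8 windows. Sites further upstream than 250 bases were not searched, and *Ier2* and *Egr1* had no window, so these genes may hold such sites elsewhere. The member windows had a median GC content of 63.9%, against 52.7% over all promoters.

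Levels were deposited as FPKM, fragments per kilobase of transcript scaled to the fragments of the library, so genes can be compared within a library. Estimated depth was 12800000 to 18700000 fragments per library and did not separate the groups. The targeted *Dgcr8* was at 7.10 and 8.60 FPKM in the WT libraries of E8.5, against 1.64 and 4.67 FPKM in those of the knockout, and at E9.5 at 3.49 and 3.23 against 1.15 and 1.77 FPKM. Cardiomyocyte markers were abundant in every library (*Myl7*, atrial myosin light chain, 12320 to 33660 FPKM). Markers of maternal decidua were high in 3 of the 4 E8.5 libraries. The summed level of 7 of them was 470.9 and 1173 FPKM in WT hearts at E8.5 and 14.0 and 5168 FPKM in the cKO hearts of that day. At E9.5 it was 5.24 to 15.4 FPKM, where the decidual prolactin *Prl3c1* was listed at 0 in all 4 libraries. Of the 24385 features, 10018 had a mean of at least 1 FPKM and were tested, 8 of the 10 genes among them. *Klf2* (mean 0.823 FPKM) and *Klf4* (mean 0.517 FPKM) were not tested.

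At E8.5 the gene with the highest mean of the 10 in either genotype was *Ier2*, a short nuclear protein gene on chromosome 8 (84661331 to 84662852). It had 26.0 FPKM in both WT libraries and 20.3 and 33.2 FPKM in the cKO libraries. *Fos* (chromosome 12, 85473901 to 85477270) had 10.6 and 25.2 FPKM in the WT libraries, against 10.4 and 28.3 FPKM in the cKO libraries. The *Fos* replicates thus lay further apart than the genotypes, and replicate 2 was the higher one in both. Replicate 2 also had more of the decidual prolactin *Prl8a2* in both genotypes (1141 against 448.8 FPKM in the WT pair, 5104 against 9.95 FPKM in the cKO pair), which made up most of the decidual sums above, and its part in the *Fos* levels was not tested. The decidual markers *Prl3c1* and *Bmp2* were also higher in replicate 2 of both pairs, while *Dcn* (decorin) was higher in replicate 1 of the WT pair (6.20 against 0.893 FPKM) and in replicate 2 of the cKO pair (2.54 against 0.311 FPKM).

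*Jun* (chromosome 4, 95049036 to 95052222) had 11.2 and 15.5 FPKM in WT hearts at E8.5, against 17.2 and 13.5 FPKM in cKO hearts. *Junb* (chromosome 8, 84976909 to 84978748), an AP-1 subunit with weaker activity than Jun on many targets, had 7.79 and 8.21 FPKM in the WT libraries, against 5.08 and 11.3 FPKM in the cKO libraries. Both overlapped between genotypes. *Klf6* (chromosome 13, 5861489 to 5870393), a widely expressed KLF, had 12.2 and 10.9 FPKM in the WT libraries, against 10.8 and 16.2 FPKM in the cKO libraries.

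*Ier3* (chromosome 17, 35821713 to 35822911), whose product is known to modulate cell survival, had 29.0 and 11.6 FPKM in WT hearts at E8.5, against 9.72 and 12.04 FPKM in cKO hearts. The upper WT library was alone, while the other 3 lay close together. The same library had the highest sum of 9 myeloid markers, which was 400.1 and 101.7 FPKM in the WT libraries, against 9.20 and 295.5 FPKM in the cKO libraries, and the part of these cells in the *Ier3* level was not tested. *Atf3* (chromosome 1, 191170297 to 191183333), a stress-induced repressor, had 4.69 and 5.43 FPKM in the WT libraries, against 5.02 and 1.96 FPKM in the cKO libraries. *Egr1* (chromosome 18, 34861207 to 34864956) was near 1 FPKM, with 0.878 and 1.21 FPKM in the WT libraries, against 0.529 and 1.14 FPKM in the cKO libraries.

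*Klf2* (chromosome 8, 72319062 to 72321654) had 0.577 and 0.872 FPKM in WT hearts at E8.5, against 1.56 and 0.951 FPKM in cKO hearts, so both cKO libraries lay above both WT libraries. *Klf4* (chromosome 4, 55527137 to 55532475), a factor of vessel walls and of pluripotent cells, had 1.42 and 0.365 FPKM in the WT libraries, against 0.332 and 1.22 FPKM in the cKO libraries. At these levels an estimated 14 to 50 fragments lay behind an E8.5 *Klf2* value and 18 to 55 behind an E8.5 *Klf4* value, so neither order between genotypes was resolved at this depth.

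**Figure D1:**
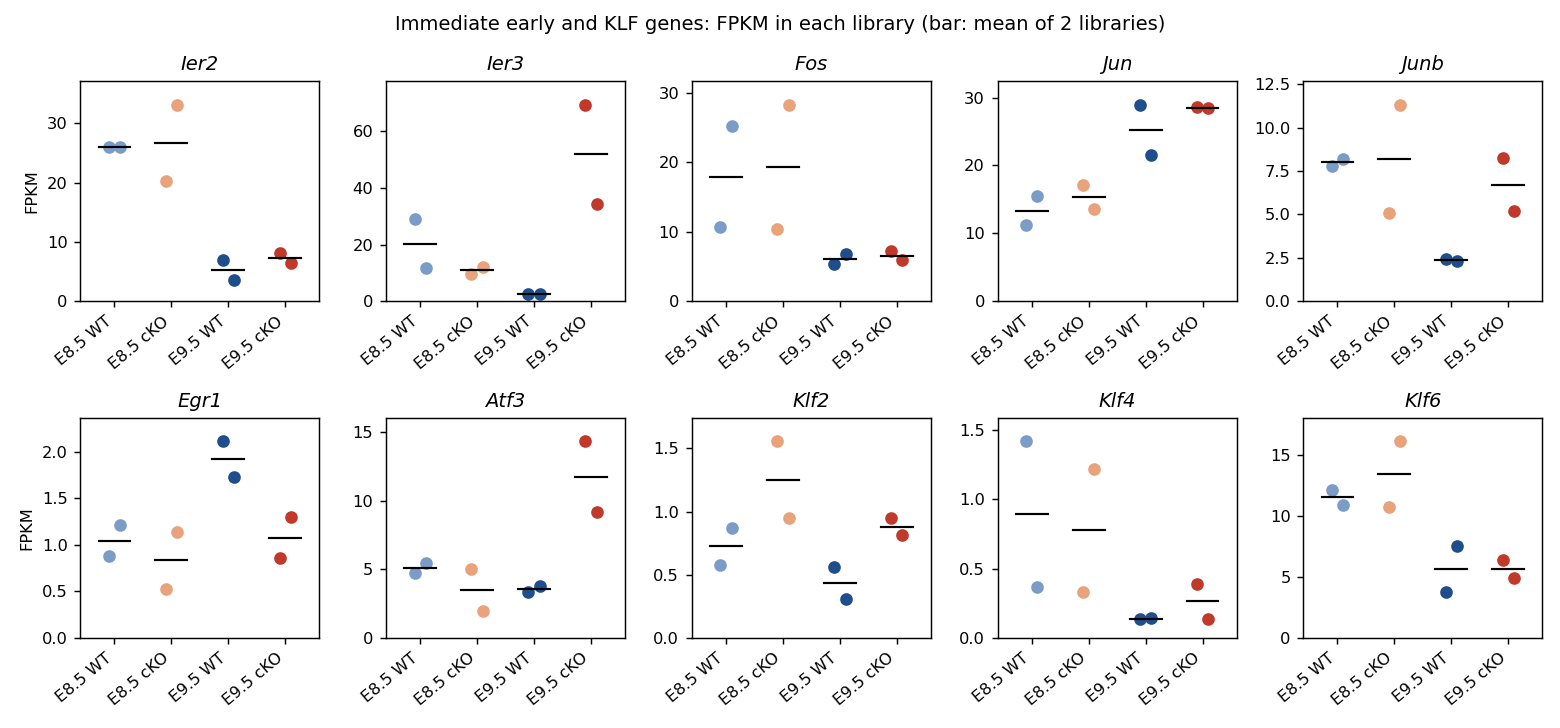
FPKM of the 10 genes in each of the 8 libraries, with 1 point per library, a bar at the mean of the 2 libraries of a group, and a separate vertical axis from 0 for each gene. In E9.5 cKO hearts *Ier3* had 69.4 and 34.4 FPKM, against 2.70 and 2.53 FPKM in E9.5 WT hearts, while *Fos*, *Jun* and *Klf6* overlapped between genotypes at both stages.

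The genotypes were compared at E8.5 with limma (moderated tests on log2(FPKM + 1), p-values adjusted by Benjamini-Hochberg over the 10018 genes). This is the 1 comparison that shares no library with the E9.5 contrast. A call needed an adjusted p under 0.05 and a 1.5-fold difference. None of the 8 tested genes was called, against 0.00998% of all tested genes in either direction (1 of 10018). In none of the 8 did the libraries separate, while 2.54% of all tested genes had both cKO libraries above both WT libraries and 40.1% had both below. At an unadjusted p under 0.05 and 1.5-fold, 24 genes were higher and 691 lower over all genes, and 0 of the 8 were among either. The differences ran from -0.72 for *Ier3* (SE 0.46, limma adjusted p 0.609) and -0.52 for *Atf3* (SE 0.37, adjusted p 0.620) to 0.20 for *Jun* (SE 0.28, adjusted p 0.786). Single libraries set these values: the *Ier3* difference ranged from -1.35 without WT replicate 2 to -0.0860 without WT replicate 1, and that of *Atf3* from -1.03 without cKO replicate 1 to -0.0082 without cKO replicate 2. The median difference of the 10 genes was -0.03 on the log2 scale, against -0.28 over all tested genes. It was 0.24 without cKO replicate 1 and -0.38 without cKO replicate 2. Median-ratio scaling and quantile normalization moved the median of all genes to 0.03 and -0.02 and that of the 10 genes to 0.30 and 0.32, and the small differences of *Ier2*, *Junb* and *Egr1* changed sign with that shift.

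At E9.5 the picture differed between members, and *Ier3* stood furthest apart. It had 2.70 and 2.53 FPKM in the WT libraries, against 69.4 and 34.4 FPKM in the cKO libraries, a mean of 51.9 ± 24.7 against 2.61 ± 0.12 FPKM (SD, n = 2) and a ratio of means of 19.9. All other libraries of the series lay between 9.72 and 29.0 FPKM, so the E9.5 WT libraries were the lowest of the 8 and the E9.5 cKO libraries the highest. Its rank among the tested genes was at percentiles 40.02 and 36.95 in E9.5 WT and at 91.2 and 85.4 in E9.5 cKO hearts. The log2 difference was 3.79 (SE 0.46) and lay between 3.29 and 4.28 over every alternative processing tried.

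*Atf3* had 3.31 and 3.76 FPKM in the E9.5 WT libraries, against 14.3 and 9.15 FPKM in the E9.5 cKO libraries. Both cKO libraries lay above all 6 others of the series, and the ratio of means was 3.32 (log2 difference 1.46, SE 0.37). *Junb* had 2.44 and 2.31 FPKM in the E9.5 WT libraries, against 8.24 and 5.21 FPKM in the E9.5 cKO libraries. For *Junb* the E9.5 WT libraries were the low ones, since its E9.5 cKO values lay inside the E8.5 range (5.08 to 11.3 FPKM). The ratio of means was 2.83 (log2 difference 1.17, SE 0.36).

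The other AP-1 subunits did not separate. *Fos* had 5.29 and 6.86 FPKM in the E9.5 WT libraries, against 7.19 and 5.87 FPKM in the E9.5 cKO libraries, a log2 difference of 0.09 (SE 0.51). *Jun* had 29.0 and 21.5 FPKM in the WT libraries, against 28.6 and 28.4 FPKM in the cKO libraries, a difference of 0.18 (SE 0.28). Within a library, *Jun* therefore exceeded *Junb* by 11.9 and 9.33 times in E9.5 WT and by 3.47 and 5.45 times in E9.5 cKO hearts, compared with 1.19 to 3.38 times at E8.5.

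*Ier2* had 6.95 and 3.55 FPKM in the E9.5 WT libraries, against 8.05 and 6.38 FPKM in the E9.5 cKO libraries, which overlapped (log2 difference 0.44, SE 0.35). *Ier3* was below *Ier2* in both E9.5 WT libraries (0.388 and 0.713 times) and above it in both E9.5 cKO libraries (8.62 and 5.40 times). *Egr1* went the other way from *Ier3*, with 2.11 and 1.73 FPKM in the E9.5 WT libraries, against 0.858 and 1.30 FPKM in the E9.5 cKO libraries. Both cKO libraries lay below both WT libraries, at a log2 difference of -0.50 (SE 0.26).

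Of the KLF genes, *Klf6* had 3.74 and 7.53 FPKM in the E9.5 WT libraries, against 6.41 and 4.89 FPKM in the E9.5 cKO libraries, a difference of 0.05 (SE 0.34). Its sign hung on single libraries, with -0.37 without WT replicate 1 and 0.48 without WT replicate 2. *Klf2* had 0.560 and 0.308 FPKM in the WT libraries, against 0.945 and 0.813 FPKM in the cKO libraries. The latter pair lay above the former, as at E8.5, with an estimated 15 and 11 fragments behind the WT values and 27 and 25 behind the cKO values. *Klf4* had 0.136 and 0.140 FPKM in the WT libraries, against 0.392 and 0.135 FPKM in the cKO libraries, from an estimated 6 to 19 fragments.

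In all, 4 of the 10 genes (*Ier3*, *Junb*, *Atf3* and *Klf2*) had both E9.5 cKO libraries above both WT libraries, 1 (*Egr1*) had both below, and 5 overlapped. Among the 8 tested genes these counts were 3, 1 and 4, and over all tested genes 21.0% lay above and 31.1% below. Because the genes were chosen with this contrast known, nothing is read from these counts. In addition, *Egr1* passed the filter of 1 FPKM only narrowly, with a mean of 1.22 FPKM over the 8 libraries. E9.5 WT hearts, where it was highest (1.92 FPKM on average), lifted that mean. Its place among the tested genes thus rests partly on a group of this contrast. The median difference was 0.29 for the 10 genes and -0.07 for all tested genes. That of the 10 genes was 0.52 with a pseudocount of 0.1 and ranged from 0.24 to 0.455 when libraries were left out.

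**Figure D2:**
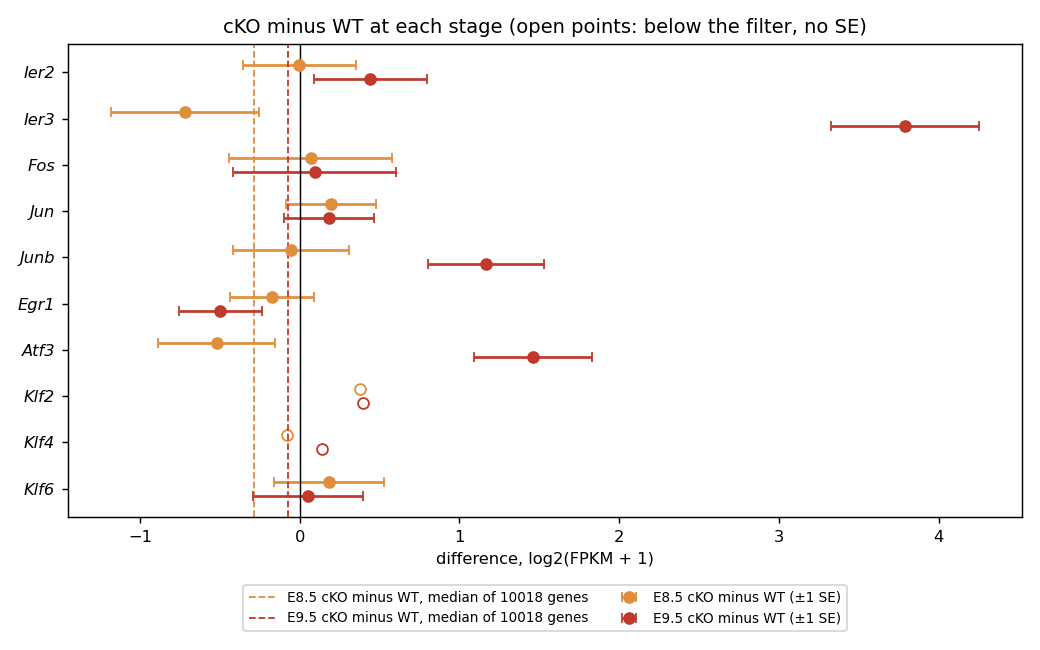
Difference between cKO and WT hearts on the log2(FPKM + 1) scale for each gene at E8.5 (orange) and E9.5 (red), with bars of 1 SE from limma, open points for the untested *Klf2* and *Klf4*, and dashed lines at the medians of all tested genes (-0.28 and -0.07). *Ier3*, *Atf3* and *Junb* lie to the right at E9.5 (3.79, 1.46 and 1.17) and at -0.72, -0.52 and -0.06 at E8.5, where the sign of *Junb* changes under other scalings.

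Other measurements moved with the E9.5 genotypes. The lists behind them were compiled with earlier results of these libraries known, so nothing is read from their counts and calls. Of 14 tested integrated stress response genes, to which *Atf3* also belongs as a known target, 11 had both cKO libraries above both WT libraries (21.0% of all tested genes) and 0 had both below (31.1%). The median difference of that list was 1.11, against -0.07 over all genes. Of these, 2 were called higher by limma, against 0.170% of all tested genes (17 of 10018): *Chac1*, a glutathione-degrading enzyme, with 0.236 and 0.291 FPKM in the WT libraries, against 15.3 and 7.23 FPKM in the cKO libraries (adjusted p 0.0136), and *Trib3*, a pseudokinase induced by stress, with 2.02 and 1.53 FPKM in the WT libraries, against 27.3 and 14.6 FPKM in the cKO libraries (adjusted p 0.0233). With 16 alternatives, *Chac1* was called in 10 and *Trib3* in 7 (limma adjusted p up to 0.150 and 0.263), and neither in the fit of the 2 E9.5 groups alone, where 0 of all genes were called. Of 12 heat shock genes 2 lay above and 7 below (21.0% and 31.1% of all genes), with a median difference of -0.81. *Hspb1*, a small heat shock protein, had 2202 and 2066 FPKM in the WT libraries, against 4142 and 3826 FPKM in the cKO libraries, while *Hspe1*, a mitochondrial co-chaperone, had 1739 and 1586 FPKM in the WT libraries, against 708.5 and 921.3 FPKM in the cKO libraries, and neither was called (limma adjusted p 0.179 and 0.122). *Hspa8*, the constitutive cytosolic chaperone, was at 5409 and 6025 FPKM in the WT libraries, against 1850 and 4265 FPKM in the cKO libraries (limma adjusted p 0.275).

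Cell type markers differed as well, though no endothelial, epicardial and mesenchymal or cardiomyocyte marker of the lists was called by limma. The summed level of 10 endothelial markers was 133.7 and 117.3 FPKM in the E9.5 WT libraries, against 217.5 and 184.4 FPKM in the E9.5 cKO libraries. Of these, 5 lay above (21.0% of all tested genes), 1 below (31.1%) and 4 overlapped. *Egfl7* was the largest part of each sum, with 53.1 and 34.2 FPKM in the WT libraries, against 98.3 and 74.1 FPKM in the cKO libraries. The 8 epicardial and mesenchymal markers summed to 96.8 and 99.997 FPKM in the WT libraries, against 28.01 and 33.08 FPKM in the cKO libraries. Of the 7 tested, 6 lay below (31.1% of all tested genes) and 0 above (21.0%). The 10 cardiomyocyte markers summed to 58683 and 56853 FPKM in the WT libraries, against 80139 and 80274 FPKM in the cKO libraries. Of these, 6 lay above (21.0% of all tested genes), 1 below (31.1%) and 3 overlapped. The 1 below was *Myh6*, alpha myosin heavy chain, with 916.0 and 777.3 FPKM in the WT libraries, against 424.2 and 567.0 FPKM in the cKO libraries. The part of these shifts in the levels of *Ier3*, *Atf3* and *Junb* was not tested, and in whole hearts fewer cells of a type and less RNA per cell cannot be told apart. Myeloid markers were low at E9.5 in both genotypes (summed 10.2 to 16.2 FPKM), with *S100a8* at 0 to 0.806 FPKM.

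GC content also moved with this contrast. Across 9122 tested genes with a transcript sequence, transcript GC content and the E9.5 genotype difference had a Spearman correlation of 0.405. These genes share the same 4 libraries and are not independent, and the 2 E9.5 WT replicates differed with GC as well (correlation 0.627). *Junb* (62.7% GC), *Klf2* (61.6%) and *Ier2* (60.9%) lay at or above percentile 97.4 of tested genes, while *Ier3* (54.4%) and *Atf3* (52.2%) lay at percentiles 70.1 and 57.6. With the GC trend of each library removed, which was tried after the data were seen, the differences were 3.69 for *Ier3*, 1.46 for *Atf3*, 0.999 for *Junb*, -0.56 for *Egr1* and 0.23 for *Klf2* (0.39 as deposited). *Klf6*, at 42.4% GC and percentile 9.83, moved most, from 0.05 to 0.38. *Ier2* went from 0.44 to 0.28, *Jun* from 0.18 to 0.0349, *Klf4* from 0.14 to 0.0268 and *Fos* from 0.0934 to 0.11.

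Next, E9.5 was set against E8.5 in each genotype. Both comparisons use E9.5 libraries of the contrast on which the genes were chosen, so their values are not independent of it. FPKM of most genes was lower at E9.5, with a median difference of -0.84 in WT and -0.64 in cKO hearts over all tested genes, and the values below are read against these medians. In WT hearts, *Ier2* went from 26.0 to 5.25 FPKM on average (-2.17, SE 0.35), *Ier3* from 20.3 to 2.61 (-2.43, SE 0.46) and *Junb* from 7.998 to 2.38 (-1.41, SE 0.36). These 3 lay further down than the median gene. *Klf6* (-0.98, SE 0.34) lay close to it, and its difference had the opposite sign under quantile normalization (0.02).

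Cell type markers moved with stage too. In WT hearts 7 of 10 cardiomyocyte and 5 of 8 yolk sac endoderm markers had both E9.5 libraries above both E8.5 libraries (5.43% of all tested genes), with median differences of 0.89 and 1.52, as had 3 of 7 epicardial and mesenchymal markers (0.70). All 5 tested myeloid markers had both below (80.1%), with a median of -2.54. In cKO hearts 6 of 10 cardiomyocyte and 1 of 8 yolk sac endoderm markers lay above (7.05%) and 2 of 5 myeloid markers below (62.7%). Of 5 tested decidual markers, 1 lay above (5.43%) and 2 below (80.1%) in WT hearts, and 0 above (7.05%) and 2 below (62.7%) in cKO hearts. Among these *Prl8a2* had differences of -7.60 in WT and -6.67 in cKO hearts (SE 2.30 in each). The part of all these markers in the stage differences of the 10 genes was not tested.

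*Jun* went against the median, from 13.3 to 25.2 FPKM in WT (0.87, SE 0.28) and from 15.3 to 28.5 FPKM in cKO hearts (0.86, SE 0.28). All 4 E9.5 libraries of *Jun* lay above all 4 E8.5 libraries. Median-ratio scaling and quantile normalization gave *Jun* differences of 1.81 and 1.77 in WT and of 1.59 and 1.60 in cKO hearts. *Egr1* was also higher in both E9.5 WT libraries than in all 4 E8.5 libraries (0.52, SE 0.26), but in cKO hearts the stages overlapped (0.19, SE 0.26). The same scalings gave *Egr1* 1.05 and 1.34 in WT and 0.57 and 0.66 in cKO hearts. *Fos* had differences of -1.31 in WT and -1.29 in cKO hearts (SE 0.51 in each), and the E9.5 libraries lay below all E8.5 libraries. With single libraries left out these ranged from -1.90 to -0.73 in WT and from -1.97 to -0.61 in cKO hearts, and median-ratio scaling gave -0.41 and -0.61. The ratio of *Jun* to *Fos* within a library therefore went from 0.477 to 1.65 at E8.5 to 3.14 to 5.48 at E9.5.

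In cKO hearts *Ier2* (-1.72, SE 0.35) lay below the median gene as in WT hearts. *Klf6* also had a negative difference (-1.11, SE 0.34), which became 0.03 with the GC trend removed. *Ier3* went from 10.9 to 51.9 FPKM (2.08, SE 0.46) and *Atf3* from 3.49 to 11.7 FPKM (1.56, SE 0.37), the former opposite in sign to its WT difference. *Atf3* in WT hearts had -0.42 (SE 0.37), which became 0.38 under median-ratio scaling and 0.53 under quantile normalization, scalings that move the median of all genes to near 0. *Junb* had -0.19 (SE 0.36) in cKO hearts, with overlapping stages, and 0.47 and 0.56 under the same scalings. Both untested genes had negative differences in WT and cKO hearts, *Klf2* of -0.27 and -0.25 and *Klf4* of -0.68 and -0.45. Those of *Klf2* became 0.0832 and 0.14 under median-ratio scaling and 0.46 and 0.28 under quantile normalization. The median of the 8 tested genes was -1.14 in WT hearts (-0.84 over all tested genes) and -0.0004 in cKO hearts (-0.64). With the low *Klf2* and *Klf4* included it was -0.83 and -0.22. The latter value was 0.12 without E8.5 cKO replicate 2.

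Of the 8 tested genes, 2 had both E9.5 libraries above both E8.5 libraries in WT hearts (5.43% of all tested genes) and 6 had both below (80.1%). In cKO hearts 3 lay above (7.05%), 3 below (62.7%) and 2 overlapped. By the limma rule, 4 of the 8 tested genes were called lower at E9.5 in WT hearts (*Ier2*, *Ier3*, *Junb* and *Klf6*), against 46.7% of all tested genes, and 1 was called higher (*Jun*), against 1.40%. In cKO hearts 2 were called lower (*Ier2* and *Klf6*), against 28.5%, and 2 higher (*Ier3* and *Atf3*), against 2.05%. These tests use the E9.5 libraries on which the genes were chosen, so the calls are given as counts and nothing is read from them. *Klf6* was called in 4 of 15 alternatives in each genotype. The calls on lower genes depended on the scale: under median-ratio scaling and quantile normalization none of the 4 was called in WT hearts and neither in cKO hearts. Lower calls over all genes fell alike, from 4683 to 69 and 27 in WT and from 2857 to 77 and 49 in cKO hearts. The WT total of 5 calls became 0 without E8.5 WT replicate 1, 1 without E8.5 WT replicate 2 or E9.5 WT replicate 1, and 3 without E9.5 WT replicate 2 or either E9.5 cKO library. Over all genes the WT total of 4823 became 32 without E8.5 WT replicate 1, 200 without E8.5 WT replicate 2, 58 without E9.5 WT replicate 1, 2289 without E9.5 WT replicate 2, and 3798 and 3800 without E9.5 cKO replicates 1 and 2. The cKO total of 4 became 2 without E8.5 cKO replicate 2 (2468 of all genes, from 3062) and 0 without E9.5 cKO replicate 1 or 2, where 1 and 2 of all genes were called. These losses thus went with those over all genes and say nothing particular about the 10.

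**Figure D3:**
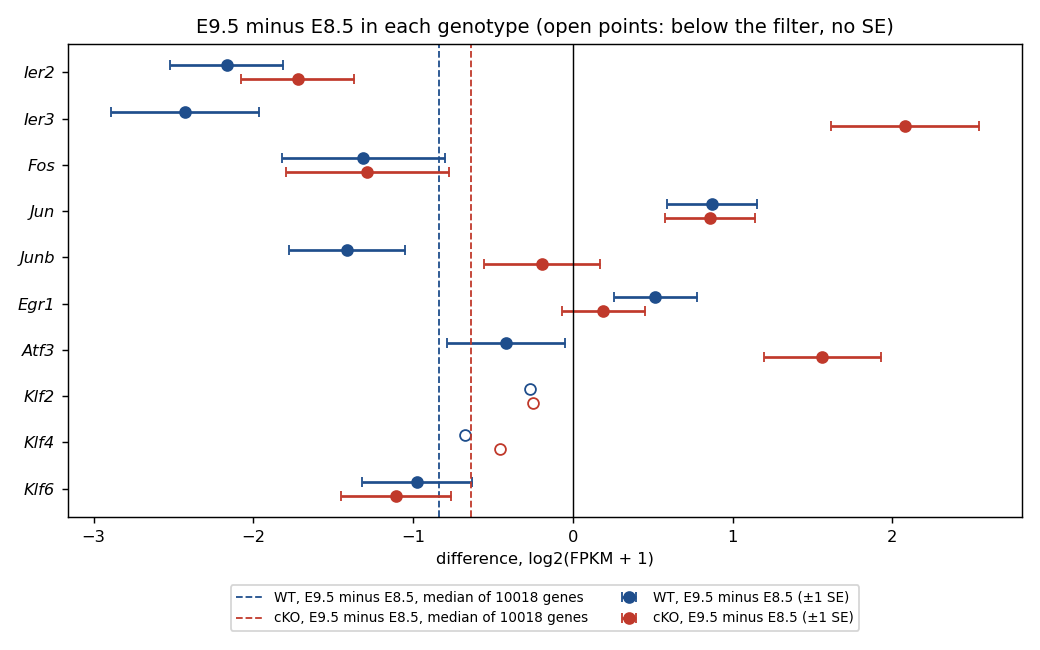
Difference between E9.5 and E8.5 on the log2(FPKM + 1) scale in WT (blue) and cKO (red) hearts, with bars of 1 SE from limma, open points for the untested genes and dashed lines at the medians of all tested genes (-0.84 and -0.64). The 2 genotypes lie near each other for *Fos*, *Jun*, *Ier2* and *Klf6* and apart for *Ier3*, *Atf3* and *Junb*.

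Ranks within a library do not depend on its scale. *Ier2* ranked between percentiles 69.5 and 80.4 of the tested genes at E8.5 and between 44.6 and 63.25 at E9.5. *Jun* ranked between 52.8 and 66.6 at E8.5 and between 78.5 and 83.7 at E9.5. *Atf3* ranked at 44.5 and 45.9 in E9.5 WT and at 73.7 and 66.9 in E9.5 cKO hearts, and *Junb* at 37.8 and 34.9 against 63.7 and 56.4. *Fos* had ranks of 54.2 and 59.1 against 60.9 and 58.8, a narrower span than its 51.7 to 78.0 over the E8.5 libraries. *Egr1* ranked no higher than 4.82 at E8.5, at 34.2 and 27.5 in E9.5 WT hearts and at 9.34 and 24.3 in E9.5 cKO hearts. The summed level of the 10 genes was 56.2 and 50.3 FPKM in E9.5 WT, where *Jun* held 51.5% and 42.9% of it, and 144.4 and 96.5 FPKM in E9.5 cKO hearts, where *Ier3* held 48.1% and 35.7%.

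**Figure D4:**
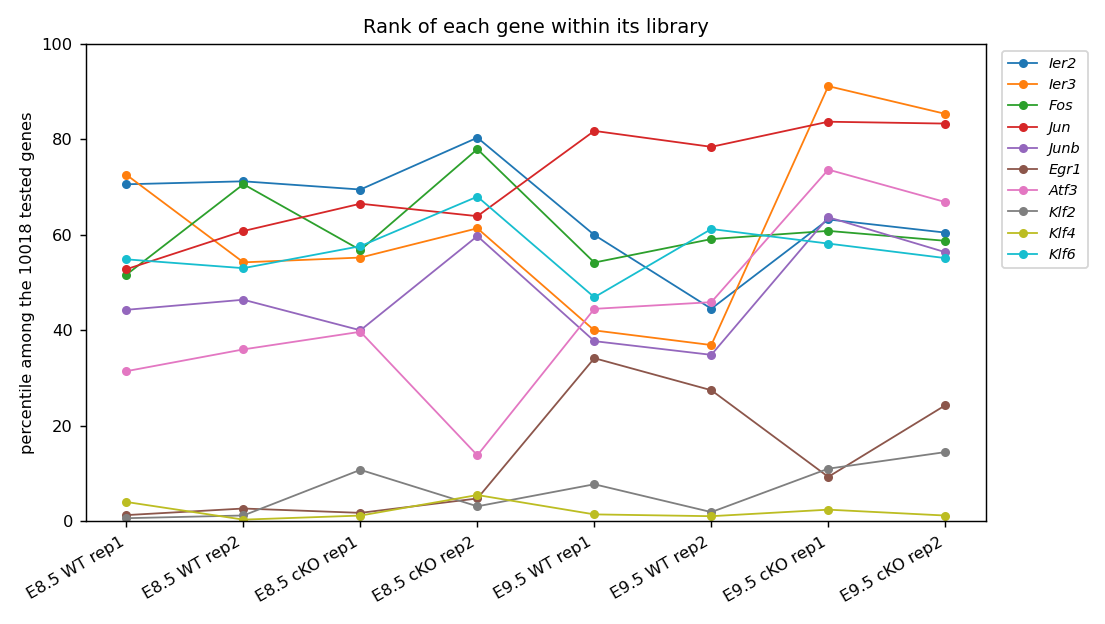
Percentile of each of the 10 genes among the 10018 tested genes of a library (vertical axis, 0 to 100), for the 8 libraries, with lines joining the points of 1 gene only to guide the eye. *Ier3* goes from 40.02 and 36.95 in E9.5 WT to 91.2 and 85.4 in E9.5 cKO hearts, while *Jun* is at 78.5 or above in all 4 E9.5 libraries.

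The pathway around these genes is described by lists that were also compiled with earlier results known, so nothing is read from their counts and calls. Of 20 other immediate early genes tested, 12 had both E9.5 cKO libraries above both WT libraries (21.0% of all tested genes) and 3 below (31.1%), none was called by limma, and the median difference was 0.55 against -0.07 over all genes. *Cyr61*, a secreted matricellular protein, had 38.6 and 81.8 FPKM in the WT libraries, against 225.3 and 162.5 FPKM in the cKO libraries (log2 difference 1.75, SE 0.48, limma adjusted p 0.150). *Id1*, an inhibitor of bHLH factors, had 116.6 and 127.9 FPKM in the WT libraries, against 57.1 and 53.7 FPKM in the cKO libraries (-1.13, SE 0.38, adjusted p 0.216). *Tsc22d1*, the most abundant gene of the list, overlapped, with 414.2 and 398.9 FPKM in the WT libraries, against 393.9 and 419.1 FPKM in the cKO libraries.

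Against the same shares of 21.0% and 31.1%, 6 of 15 feedback inhibitors of the early response lay above and 3 below at E9.5, and none was called (median difference 0.12). *Dusp1*, a phosphatase of MAP kinases, had 7.86 and 8.52 FPKM in the WT libraries, against 23.5 and 19.3 FPKM in the cKO libraries (1.28, SE 0.27, limma adjusted p 0.112). *Zfp36l1*, which promotes decay of AU-rich mRNAs, had 35.5 and 25.0 FPKM in the WT libraries, against 9.57 and 15.5 FPKM in the cKO libraries (-1.22, SE 0.31, adjusted p 0.136). *Dusp6*, a phosphatase of ERK, had 30.3 and 26.6 against 26.6 and 34.6 FPKM, which overlapped. At E8.5 none of the genes of either list was called.

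Of 11 other AP-1 and CREB/ATF subunits, 4 lay above (21.0% of all genes) and 2 below (31.1%) at E9.5, and none was called (median 0.11). *Mafk*, a small Maf protein, had 3.10 and 4.40 FPKM in the WT libraries, against 10.3 and 5.21 FPKM in the cKO libraries (0.83, SE 0.34, limma adjusted p 0.298). *Atf1*, a CREB-like factor, had 4.13 and 7.18 FPKM in the WT libraries, against 1.99 and 2.08 FPKM in the cKO libraries (-1.09, SE 0.44, adjusted p 0.292), and *Atf2*, a stress kinase target, overlapped with 1.53 and 4.36 against 3.74 and 1.52 FPKM. Of 19 kinases and factors upstream of early genes, 5 lay above (21.0% of all genes) and 2 below (31.1%), with none called and a median of 0.12. *Mapk3*, which encodes ERK1, had 12.4 and 7.83 FPKM in the WT libraries, against 21.1 and 15.2 FPKM in the cKO libraries (0.80, SE 0.37, limma adjusted p 0.351). The MAP kinase kinase *Map2k1* had 51.4 and 55.1 against 58.0 and 101.9 FPKM and *Map2k2* had 20.2 and 11.4 against 14.9 and 9.24 FPKM.

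Of 10 other KLF and SP factors, 3 lay above (21.0% of all genes) and 0 below (31.1%) at E9.5, none was called, and the median difference was 0.07. *Klf10*, a TGF-beta-induced factor, had 4.47 and 5.83 FPKM in the WT libraries, against 3.78 and 6.63 FPKM in the cKO libraries. *Klf1*, the erythroid KLF, had 1.89 and 2.17 against 5.42 and 3.53 FPKM, and the erythroid markers summed to 16366 and 34099 FPKM in the WT libraries, against 44974 and 33244 FPKM in the cKO libraries. *Klf13* had 2.71 and 2.81 against 4.92 and 3.75 FPKM. Between the stages of WT hearts, all 10 had both E9.5 libraries below both E8.5 libraries, with a median of -1.09 (-0.84 over all genes), and 80.1% of all tested genes did so.

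Of 10 tested flow-responsive endocardial genes, set beside *Klf2*, 2 lay above (21.0% of all genes) and 1 below (31.1%) at E9.5, and 1 was called higher (0.170%). This was *Edn1*, the endothelin-1 precursor, with 1.11 and 1.93 FPKM in the WT libraries, against 9.53 and 7.38 FPKM in the cKO libraries (1.92, SE 0.26, limma adjusted p 0.0496). It was called in 5 of 16 alternatives, with adjusted p up to 0.623, and was lost with a pseudocount of 0.1 (0.0526) and without any 1 of the 4 E9.5 libraries. At E8.5 *Edn1* had 1.75 and 2.06 FPKM in the WT libraries, against 1.47 and 1.07 FPKM in the cKO libraries. The list's median difference at E9.5 was 0.07.

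**Figure D5:**
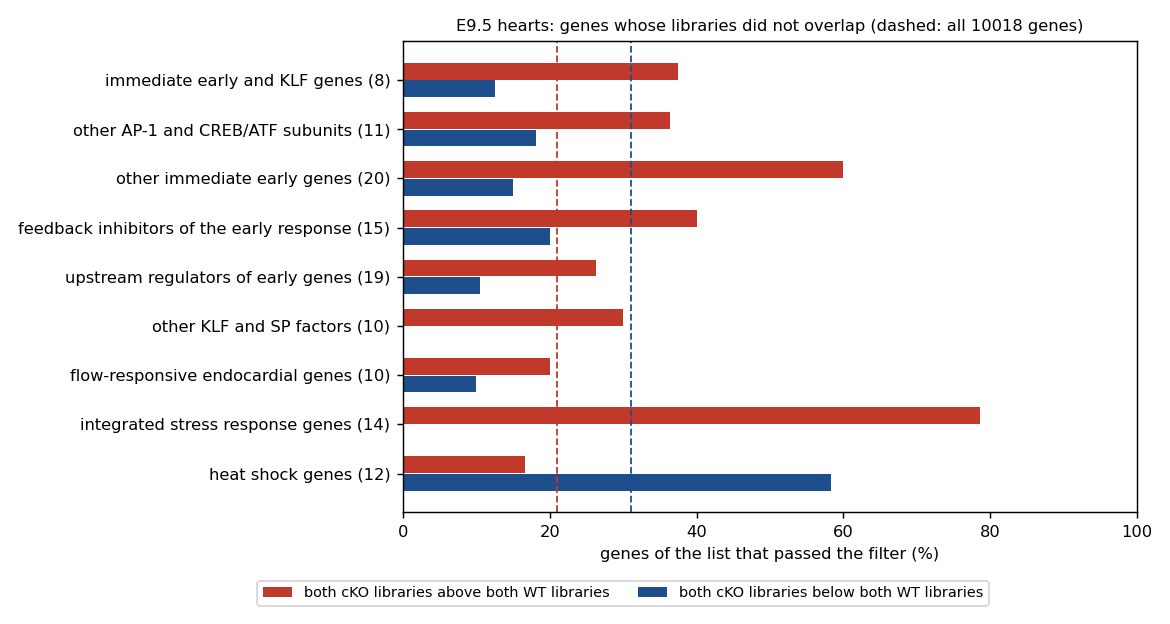
Share of the tested genes of each list (number in brackets) whose E9.5 cKO libraries both lie above (red) or both below (blue) the 2 E9.5 WT libraries, with dashed lines at 21.0% and 31.1%, the shares of all tested genes. The integrated stress response genes (11 of 14 above) and the other immediate early genes (12 of 20 above) reach the largest shares above among the 9 lists drawn, and the heat shock genes (7 of 12) the largest share below. Cell type markers are not drawn. The lists were compiled with earlier results known, so nothing is read from these shares.

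Among the 5 tested genes whose profile over the 8 libraries was most like the mean centred profile of the 10 genes were *Vegfa*, *E2f1*, *Tmem178* and *Wwtr1*, with root mean square differences of 0.134, 0.134, 0.142 and 0.145 on the log2 scale. *Vegfa* was at 2.08 and 1.63 FPKM (WT) and 1.498 and 2.38 FPKM (cKO) at E8.5, and at 0.660 and 0.595 FPKM (WT) and 2.48 and 1.06 FPKM (cKO) at E9.5. The mean profile was lowest in the 2 E9.5 WT libraries (-0.55 and -0.60). Single members lay further from it, from 0.297 for *Klf2* and 0.305 for *Junb* to 1.17 for *Ier3*.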

How the data were processed

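Total RNA from hearts was amplified by a Smart-seq protocol and sequenced by the authors. Per the study, reads were mapped with BWA to mm9, and the program behind the FPKM table was not given in the sources used here. The authors deposited 1 table of FPKM values, with 8 sample columns, all used (0 left out). Gene starts in it matched GRCm38 (91.7% of 9515 genes within 1000 bp, against 5.08% of 9192 for NCBIM37), so coordinates are on GRCm38, counted from 1. Of 24930 entries, duplicated symbols (285, none of the 10 genes) were reduced to the entry with the highest mean.

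Values were analysed as log2(FPKM + 1), which understates the change of low genes. FPKM is relative to the library total, so abundant transcripts shift all others. limma 3.58.1 in R 4.3.3 fitted 1 model of the 4 groups with a mean-variance trend to genes whose mean reached 1 FPKM. Tests were two-sided, and calls needed an adjusted p under 0.05 and 1.5-fold. With 2 against 2 libraries the smallest two-sided p of an exact permutation test is 0.333. No source ties the 2 replicates of a group to litters, so p-values measure the spread between these samples. Depth was estimated from the step that 1 fragment makes in low values, and fragments per gene from it and the GENCODE vM1 transcript length, both approximate. The fit was tested on simulated data. Median-ratio scaling, quantile normalization, a pseudocount of 0.1, no filter, a replicate block, a 2-group fit and leaving out each library were tried.

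The 10 genes and the gene lists were chosen with earlier results of these data known. Named were the 10 genes, from each other list up to 4 genes called at E9.5 with the largest difference (or, with none called, the 3 highest by mean FPKM), and the 5 genes nearest in profile, of which 1 is not reported here. Marker lists are given as sums, with single markers where a result turns on them. *Dcn* and *Myh6* fall outside this rule and were chosen after their values were seen. Promoter windows are from RefSeq (8 of the 10 genes matched, all but *Ier2* and *Egr1*), and TGACG was added to the motifs searched after the windows were read.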

Additional observations from a re-analysis of the deposited data

How the results depend on the processing

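Limits: with 2 libraries a group, a single heart library can set a value, and the depth leaves *Klf2* and *Klf4* on few fragments. No member was called at E8.5 under any alternative. At E9.5 the limma rule marked 1 member (*Ier3*, no test read) and 18 of all genes. These became 0 and 3 with no filter on low values, 0 and 0 in the 2-group fit, and 0 to 1 and 1 to 87 when libraries were left out in turn, so few genes of any kind could pass. The 5 calls of WT development (4823 of all genes) became 1 with no filter (2069), 1 under median-ratio scaling (390), 1 under quantile normalization (115), 2 with the GC trend removed (417, chosen after seeing the data) and 0 to 6 when libraries were left out (32 to 6035). The 4 calls of cKO development (3062) became 0 with no filter (511) and 0 to 6 when libraries were left out (1 to 3157). With no filter 24385 features were tested, and a group with 1 library was assumed to vary like the others. Elsewhere the cause was not tested.

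The median member difference of WT development (-0.83) became -1.27 with a pseudocount of 0.1, -0.24 under median-ratio scaling, -0.0052 under quantile normalization and 0.0793 with the GC trend removed. That of cKO development (-0.22) became 0.31 and 0.42 under the same 2 scalings, 0.0305 with the GC trend removed and -0.39 to 0.12 when libraries were left out. Both scalings move the median of all genes, from -0.84 to -0.04 and -0.02 in WT development, from -0.64 to -0.05 and -0.01 in cKO development and from -0.28 to 0.03 and -0.02 at E8.5, and the changes of sign under them include that shift.

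Signs at E8.5 changed for *Ier2* (-0.0017) to 0.34 under median-ratio scaling, 0.37 under quantile normalization and 0.21 with the GC trend removed, for *Junb* to 0.26, 0.27 and 0.12, and for *Egr1* to 0.0094, 0.13 and 0.14. When libraries were left out, the E8.5 difference ranged from -0.34 to 0.34 for *Ier2*, -1.35 to -0.0860 for *Ier3*, -1.03 to -0.0082 for *Atf3*, -0.61 to 0.75 for *Fos*, -0.0242 to 0.42 for *Jun*, -0.57 to 0.45 for *Junb*, -0.41 to 0.0688 for *Egr1* and -0.0894 to 0.45 for *Klf6*. *Klf6* in WT development became 0.0217 under quantile normalization and 0.11 with the GC trend removed, and in cKO development 0.0322 with the latter. With libraries left out, the E9.5 genotype difference ranged from 0.04 to 0.85 for *Ier2* and from -0.07 to 0.25 for *Fos*. For *Jun* it ranged from -0.02 to 0.39 and for *Klf6* from -0.37 to 0.48. For *Egr1* it ranged from -0.65 to -0.34, for *Junb* from 0.88 to 1.45 and for *Atf3* from 1.165 to 1.76.

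Over all tested genes, replicates with the same number did not deviate together (correlations of -0.0036 and 0.02 between genotypes and of -0.12 and -0.05 between stages). No pairing by number was thus seen. Replicates also differed with GC content, so these correlations cannot show whether samples shared a litter or preparation. With a replicate block, 0 members were called at E8.5 (1 of all genes), 1 at E9.5 (12), 5 in WT development (4668) and 3 in cKO development (2619). With that block *Klf6* lost its call in both genotypes and *Fos* gained a call in WT hearts. With the pairing crossed, 0 members were called at E8.5 (0 of all genes), 0 at E9.5 (0), 4 in WT development (4303) and 3 in cKO development (2495).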
